A study of Mus musculus with 24 samples.

Results

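The question addressed here is what the presence of bisphenol A (BPA), a plasticizer and estrogen mimic, changed in the transcripts of fibroblasts 24 hr after the oxidant potassium bromate (KBrO3). The comparison uses 6 of the 24 arrays of the series, namely the 3 arrays of co-exposed cells and the 3 of KBrO3-only cells whose labels give 24 hr. They were selected by their labels, not by any measured value. All cells were immortalized Ku70-/- mouse embryonic fibroblasts, a single line that lacks a subunit of the Ku heterodimer, which holds broken DNA ends for joining. KBrO3-only cells received 20 mM KBrO3 for 1 hr, were washed and were kept in fresh medium without BPA. Co-exposed cells received 150 μM BPA for 1 hr, BPA with 20 mM KBrO3 for 1 hr, and then fresh medium with BPA for 23 hr, so that BPA was present until harvest. Times count from the start of KBrO3. Both groups therefore share the line, the missing Ku70 and the KBrO3 pulse. The remaining arrays used here are untreated controls and the same exposures at 4 hr, in the same set of 15 arrays, and BPA-only cells at 24 hr with their own controls, in a second set of 9 arrays. BPA-only cells received 150 μM BPA and no KBrO3. The labels place the controls of the first set at 4 hr and give no time for those of the second set. The arrays were Agilent whole mouse genome arrays with a single dye, Cy3, and each group had total RNA of 3 biological replicates.

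As background, KBrO3 oxidizes guanine in DNA, and the lesion 8-oxoguanine is removed by base excision repair, which passes through strand breaks. Cells answer such damage through p53, which drives genes of arrest and death, and answer oxidants through NRF2, which drives glutathione and heme-handling genes. The kinases of the integrated stress response converge on the transcription factor ATF4, which drives amino acid import, amino acid synthesis and the factor CHOP. Fibroblasts also build the extracellular matrix, which TGF-beta signalling and contractile cytoskeletal genes accompany. BPA is known as a weak ligand of estrogen receptors and related nuclear receptors.

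Of the 3 KBrO3-only arrays, replicate 1 lay on a slide with arrays of the 4 hr co-exposed group, whereas replicates 2 and 3 shared slide 4 with co-exposed replicates 1 and 2. Co-exposed replicate 3 lay on slide 5. Within slide 4 each group has 2 arrays, and that value is given below as the within-slide difference. The share of spots well above background was 68.07%, 62.13% and 59.57% on the KBrO3-only arrays and 59.08%, 57.66% and 60.24% on the co-exposed arrays, the highest being KBrO3-only replicate 1. Fibroblast markers such as Col1a1, Pdgfra and Vim were well above background on all 6 arrays for 9 of 10 genes. The summed linear level of all 10 was 497 to 578 in co-exposed and 708 to 796 in KBrO3-only cells. The defining markers Ptprc and Adgre1 of macrophages, Pecam1 and Cdh5 of endothelium, Cdh1 and Epcam of epithelium, and Myf5 and Ckm of muscle were well above background on none of the 6. Sums for other cell types also run over all listed markers with a probe, detected or not. The summed level of 10 epithelial genes, 5 of them well above background on all 6 arrays, was 0.489 to 0.565 in co-exposed cells. In KBrO3-only cells it was 0.996 to 1.10, with keratins Krt19 (-1.52) and Krt18 (-0.75) lower in co-exposed cells. That of 10 endothelial genes, again with 5 detected on all 6 arrays, was 1.04 to 1.17 and 1.60 to 1.78, with Kdr (-0.98) lower. Summed adipocyte (12.6 to 13.7 and 15.7 to 16.4), neural (2.64 to 2.84 and 3.22 to 3.40) and muscle markers (0.226 to 0.343 and 0.373 to 0.455) were below the KBrO3-only range as well. Macrophage (2.49 to 3.12 and 2.64 to 2.87) and bone and cartilage markers (38.5 to 44.9 and 38.9 to 41.1) overlapped, with Cd68 (0.71), Bglap (0.84) and Sox9 (0.71) higher. Under normexp correction the calls of Krt18, Kdr, Cd68, Bglap and Sox9 were lost (adjusted p of 0.85, 0.76, 0.29, 0.071 and 0.063), and that of Krt18 also under median scaling (-0.58), quantile normalization (-0.50) and slide as a fixed block (adjusted p of 0.067). The part of these markers in the results below was not tested. In cultures measured in bulk, fewer cells of a kind and less RNA per cell cannot be told apart. Xrcc6, the gene of Ku70, gave signal well above background throughout the series. Its level was 0.57, 0.46 and 0.51 in co-exposed and 0.34, 0.38 and 0.40 in KBrO3-only cells. The sources used here do not say where the probe lies relative to the disrupted part, so that this reading does not check the genotype.

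BPA added to KBrO3 left a different transcript profile at 24 hr in both directions. A level is the log2 signal of a probe relative to the 75th percentile of its array, and a difference is the mean level of co-exposed minus that of KBrO3-only cells. Of 12751 genes tested, 593 (4.65%) were higher and 532 (4.17%) were lower in co-exposed cells at a Bonferroni-adjusted p below 0.01 in limma and a fold change beyond 1.5, and these are called altered. For gene lists a looser threshold was used, a Benjamini-Hochberg adjusted p below 0.05 and the same fold, which 925 genes (7.25%) passed as higher and 940 (7.37%) as lower. The median difference over all genes was 0.03. Beyond 2-fold there were 186 altered genes higher and 249 lower, and beyond 4-fold there were 13 and 38. In all 1125 altered genes the 3 arrays of 1 group lay above the 3 of the other, as they did in 32% of all genes upward and 24.5% downward. With the spread taken from these 6 arrays alone, 33 genes were higher and 51 lower at the Bonferroni threshold and 927 and 900 at the looser one. Under normexp correction of the raw signals 78 were higher and 79 lower at the Bonferroni threshold. Scaling each array to its median moved the median of all genes by 0.17 and gave 589 higher and 245 lower, or 70.6% higher against 52.7%. No gene past a threshold that is named below turned its direction under that scaling.

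Among altered genes well above background on all 6 arrays, the largest rises were those of Wfdc17, Car6, Angptl6 and Trib3. Wfdc17, a small secreted protein of the whey acidic protein family, had levels of -1.69, -1.71 and -1.70 in co-exposed and -4.70, -4.77 and -4.71 in KBrO3-only cells. The groups lay far apart, with an 8.15-fold difference of 3.03 ± 0.04 (SE, 3 arrays per group). Its Bonferroni-adjusted p in limma was 8.9e-13. Car6, a secreted carbonic anhydrase, stood at 0.36, 0.31 and 0.43 against -2.53, -2.42 and -2.58, a 7.35-fold rise. Angptl6, an angiopoietin-like circulating factor, was 6.00-fold higher, at 3.59, 3.56 and 3.37 against 0.92, 0.87 and 0.97. Next came Trib3, a pseudokinase induced by ATF4 and CHOP, at 5.10, 5.11 and 4.92 against 2.77, 2.83 and 2.81. Chchd10, a protein of the mitochondrial intermembrane space, was 4.66-fold higher. Cth, which makes cysteine from cystathionine, stood at 1.84, 1.77 and 1.86 against -0.39, -0.31 and -0.36. Syt7, a calcium sensor of exocytosis, was 4.48-fold higher. Hmox1, which degrades heme to iron, biliverdin and carbon monoxide, had 4.98, 4.97 and 4.88 against 2.80, 2.83 and 2.89. Shisal2b and Fam110c completed the 10 with rises of 4.20-fold and 4.17-fold. The calls of Car6, Syt7, Shisal2b and Fam110c were lost under normexp correction (Bonferroni-adjusted p of 1 each), where Shisal2b differed by 1.21, and those of Chchd10, Syt7 and Shisal2b with the spread of the 6 arrays alone (0.0127, 0.0263 and 0.0584). Syt7 lost its call without any 1 of the 3 co-exposed arrays or without KBrO3-only replicate 2 or 3 (0.0147 to 0.0240).

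**Figure D1:**
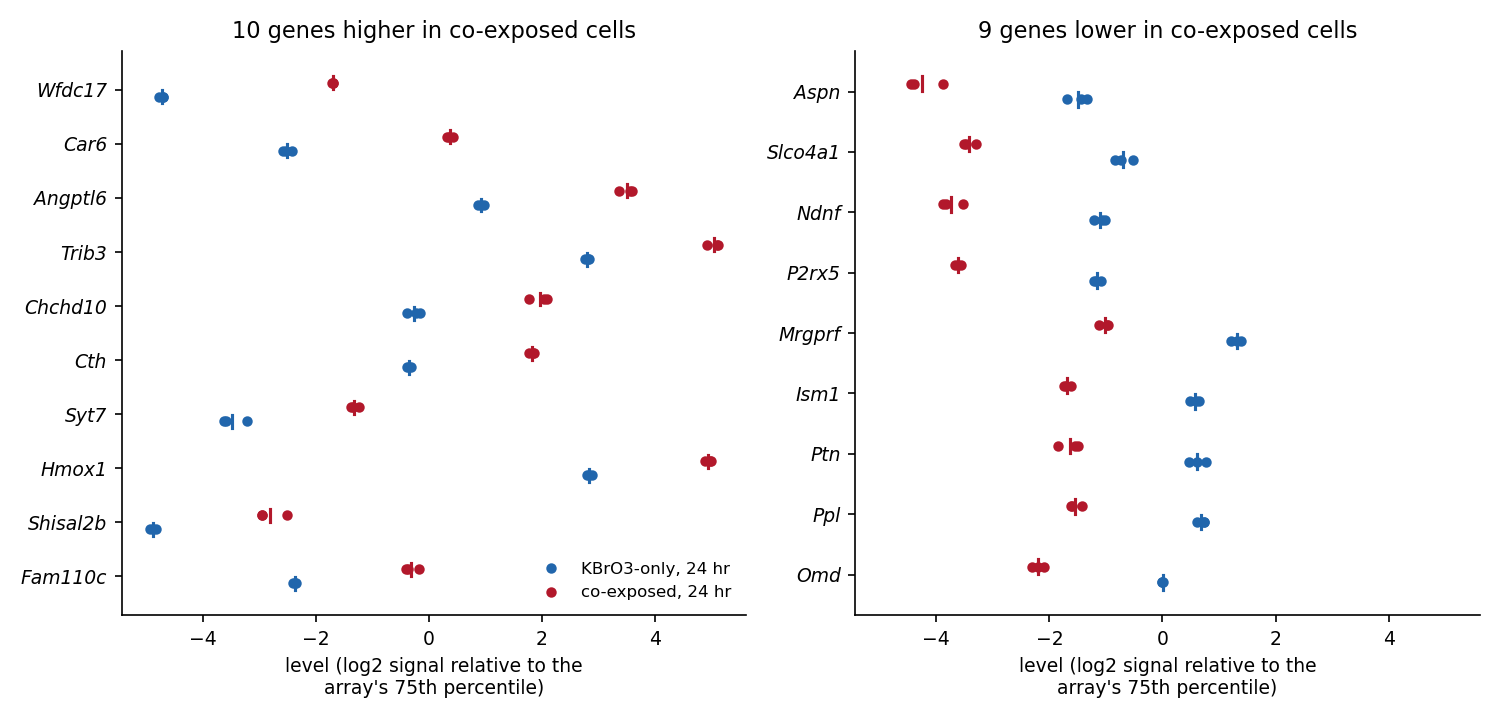
Level (log2 signal relative to the array's 75th percentile, x axis) of the leading altered genes, 10 that rose (left) and 9 that fell (right); each point is 1 array, red for co-exposed and blue for KBrO3-only cells at 24 hr, and the short bar is the mean of 3. Groups that do not overlap were a condition for choosing the 19 genes, and Wfdc17 has the largest difference of means, 3.03 on the log2 scale.

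In the same class of genes, Aspn, Slco4a1 and Ndnf fell most. Aspn (asporin), a leucine-rich proteoglycan that binds collagen and TGF-beta, had levels of -4.45, -4.39 and -3.89 in co-exposed and -1.34, -1.44 and -1.69 in KBrO3-only cells, a 6.74-fold fall. Slco4a1, an organic anion and thyroid hormone transporter, stood at -3.47, -3.50 and -3.30 against -0.52, -0.73 and -0.84. Ndnf, a secreted neurotrophic and angiogenic factor, was 6.28-fold lower.  P2rx5, an ATP-gated ion channel, fell 5.47-fold, and Mrgprf, a Mas-related G protein-coupled receptor, 5.02-fold. Ism1 (isthmin) was at -1.70, -1.74 and -1.62 against 0.48, 0.64 and 0.59. Ptn (pleiotrophin), a heparin-binding growth factor, was at -1.49, -1.55 and -1.85 against 0.48, 0.61 and 0.76. Ppl (periplakin), a plaque protein of desmosomes, fell 4.71-fold. Omd (osteomodulin), a proteoglycan related to Aspn, was at -2.31, -2.09 and -2.20 against 0.00, 0.02 and 0.00. With the spread of the 6 arrays alone the calls of Aspn and Ptn were lost (0.0625 and 0.0245).

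Where a probe was well above background on every array of 1 group and on none of the other, the fold is a lower limit. It is the mean of the bright group over the dim group's mean, in which each dim array counts as the higher of its own signal and its lowest signal well above background. There were 39 such altered genes lower and 4 higher. Hpgd, which inactivates prostaglandins, was at least 6.46-fold lower, at -5.55, -5.08 and -5.61 against -2.77, -2.51 and -2.41. Edn1, the precursor of the vasoconstrictor endothelin-1, stood at -6.46, -6.52 and -6.17 against -2.95, -2.80 and -3.13, at least 4.93-fold lower. S100g, the calcium-binding calbindin-D9k and a gene known to respond to estrogen in the uterus, was at least 4.92-fold lower. Cdhr1, a cadherin-related protein, was at least 4.72-fold lower. In the other direction Adm2 (intermedin), a vasodilator peptide, was at least 2.97-fold higher, at -3.95, -3.88 and -4.25 against -6.76, -7.00 and -7.48. Nat8f5, Fam3b and Jph2 were at least 1.95-fold, 1.62-fold and 1.41-fold higher. With normexp correction applied to the raw signals these 8 calls were lost, and the differences kept their sign. With the spread of the 6 arrays alone those of Adm2, Nat8f5, Fam3b, Jph2 and Hpgd were lost (Bonferroni-adjusted p of 0.0764, 0.435, 0.263, 0.714 and 0.0423). Under quantile normalization those of Nat8f5 and Jph2 were lost (0.0252 and 0.0204), and with weighting by the scanner's error those of Fam3b and S100g (0.0192 and 0.0253).

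The genes measured were then read by 43 lists of pathways and families, with the share of each list past the looser threshold set beside 7.25% higher and 7.37% lower over all genes. Members shared by lists are counted in each. A member that was not well above background on all 6 arrays entered through the group in which it was brighter. Counts without such members are therefore given for this comparison beside those of the lists that hold any. Over all genes 12262 were well above background on all 6 arrays, with 888 higher and 777 lower. At an unadjusted p below 0.05 in limma 4462 of the 12751 genes were higher and 3358 lower. Counts of list members at that limit are to be read beside these.

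**Figure D2:**
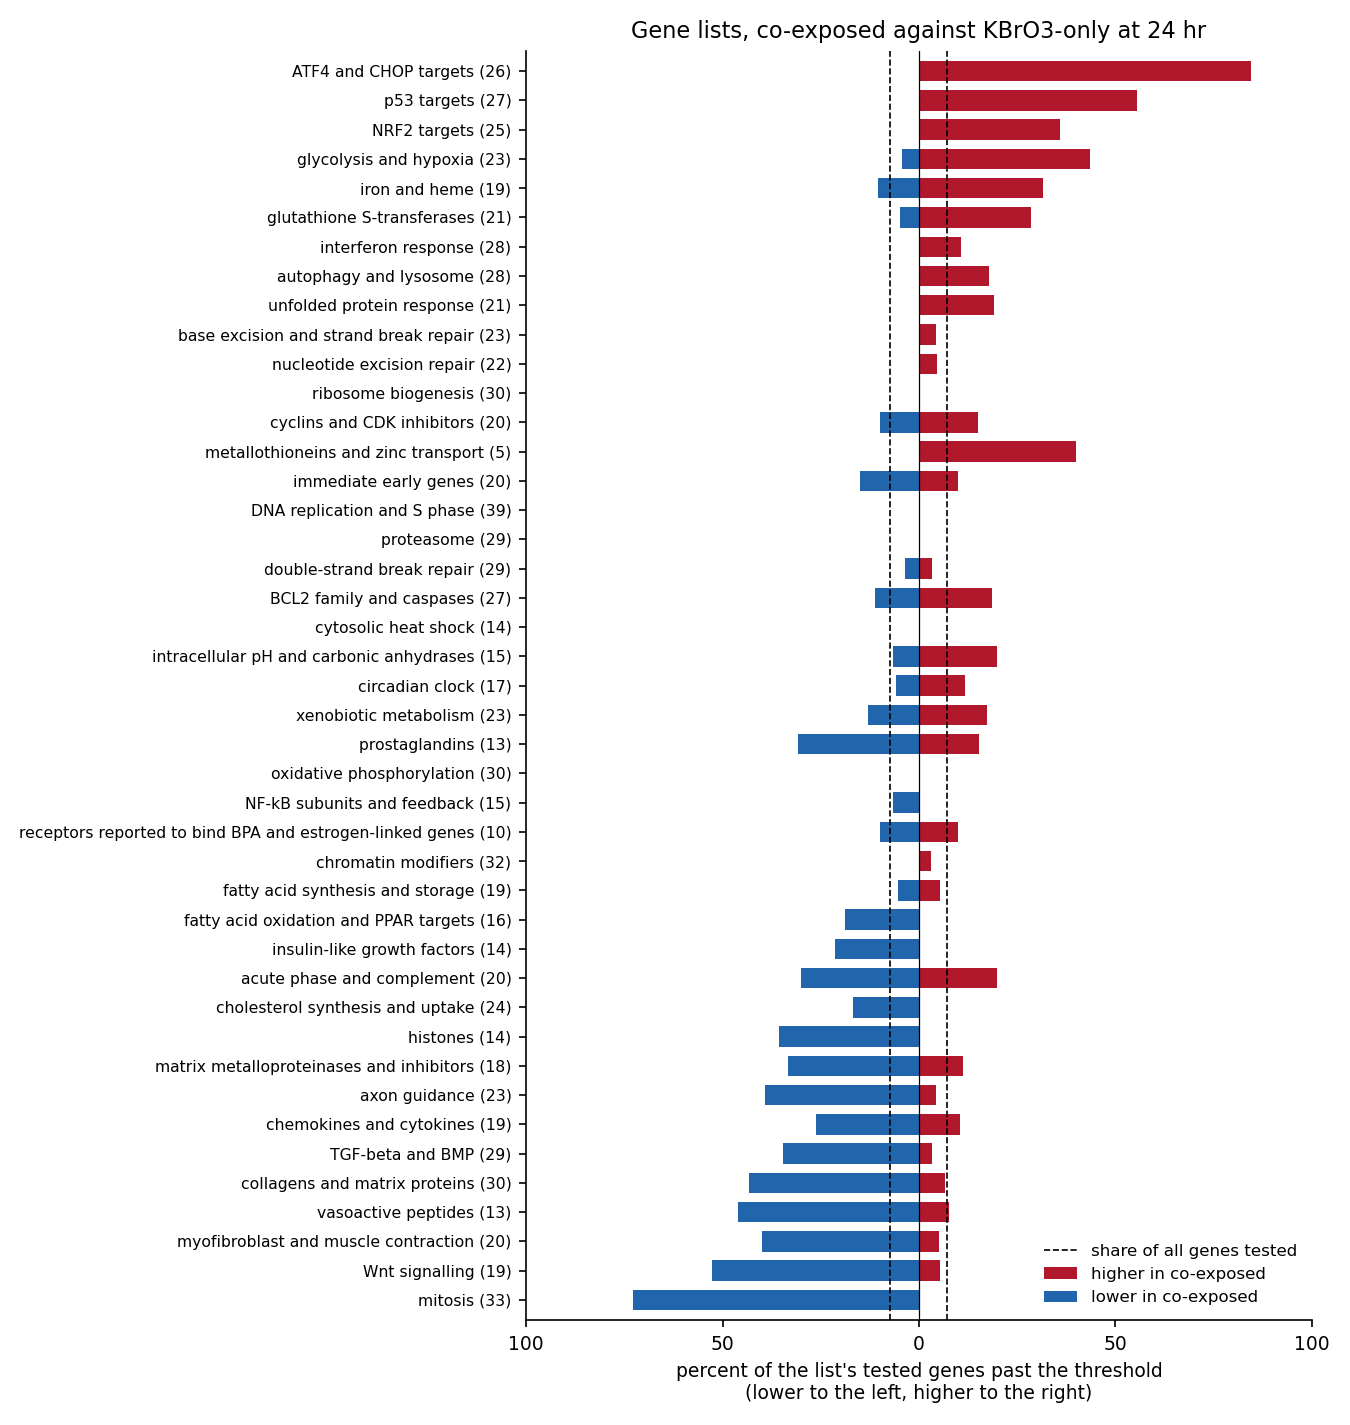
Percent of each list's tested genes (number in brackets) that passed the looser threshold, higher in co-exposed cells to the right in red and lower to the left in blue; lists are ordered by their median difference and dashed lines mark 7.25% and 7.37%, the shares over all genes. ATF4 and CHOP targets reach farthest to the right (22 of 26) and mitosis farthest to the left (24 of 33).

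ATF4 and CHOP targets, genes of amino acid supply and the integrated stress response, were higher almost throughout the list. Of 26 tested, 22 passed as higher and none as lower, with a median difference of 1.31; 1 gene had an unadjusted p below 0.05 in limma in the downward direction. Besides Trib3 and Cth, Chac1, which degrades glutathione, stood at 4.52, 4.53 and 4.45 in co-exposed and 2.66, 2.74 and 2.85 in KBrO3-only cells, a 3.36-fold rise. Ddit3, the gene of CHOP, was at 3.94, 3.88 and 3.72 against 2.19, 2.35 and 2.45. Atf4 itself differed by 1.06 ± 0.06 (SE; adjusted p = 2.7e-08). Amino acid synthesis was represented by Asns (asparagine; 1.38), Psph (serine; 1.38), Phgdh (serine; 0.90) and the mitochondrial folate enzymes Mthfd2 (1.32) and Shmt2 (1.01). Amino acid transport was represented by Slc7a3 (1.52), Slc3a2 (1.38) and Slc7a1 (0.65). Ddit4 and Sesn2, inhibitors of the growth kinase mTORC1, and Eif4ebp1, which restrains cap-dependent translation, differed by 1.52, 1.44 and 1.40. The 4 members that did not pass were Slc38a2 (-0.22), Stc2 (-0.02), Slc7a5 (0.34) and Psat1 (0.49). The within-slide median was 1.34, and 21 to 23 members passed as higher under every alternative processing.

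To show what the promoters of this list hold, windows of 250 bases before to 50 after the start were taken from RefSeq (GRCm38.p6) and searched on both strands for TGATGNAA, the core of the amino acid response element to which ATF4 binds. It was found in 7 of the 21 list members with a window (33.3%; Atf3, Chac1, Trib3, Asns, Nupr1, Pck2 and Vldlr), against 4.51% of 27025 genes. Upstream stretches with the match in capitals, in the gene's own orientation, are given for 4 members that were higher. Chac1 is at chr2:119351009-119351096 (plus strand), Asns at chr6:7693210-7693272 (minus strand), Nupr1 at chr7:126625533-126625620 (minus strand) and Atf3 at chr1:191183396-191183483 (minus strand). In Asns the match reads in the direction of the gene, and in the other 3 it lies on the opposite strand.
Chac1: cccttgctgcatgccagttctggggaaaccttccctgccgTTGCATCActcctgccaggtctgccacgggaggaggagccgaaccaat
Asns: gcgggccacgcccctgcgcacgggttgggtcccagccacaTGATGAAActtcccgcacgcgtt
Nupr1: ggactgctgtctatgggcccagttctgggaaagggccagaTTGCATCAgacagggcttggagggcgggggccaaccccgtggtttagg
Atf3: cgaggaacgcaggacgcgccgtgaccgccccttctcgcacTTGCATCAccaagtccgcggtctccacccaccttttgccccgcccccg
These genes differed by 1.75, 1.38, 1.21 and 0.81. A match to these letters is a description of the window and not a binding site measured here.

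p53 targets were also higher, with 15 of 27 past the looser threshold and none lower; 3 members had an unadjusted p below 0.05 downward. The list median was 0.63. Gdf15, a stress-induced secreted factor, stood at 1.38, 1.42 and 1.23 in co-exposed and -0.59, -0.65 and -0.58 in KBrO3-only cells, a 3.85-fold rise. Cdkn1a (p21), which inhibits cyclin-dependent kinases, was at 3.56, 3.54 and 3.27 against 1.72, 1.80 and 1.89, a 3.15-fold rise. Both groups were tight for these genes and did not overlap. The death effectors Pmaip1 (Noxa; 1.65), Bbc3 (Puma; 1.01) and Bax (0.67) were higher, as was Mdm2, the ligase that degrades p53, at 3.28, 3.33 and 3.35 against 1.85, 2.00 and 1.98. Trp53inp1 (1.57), Phlda3 (1.19), an inhibitor of AKT, and Ccng1 (1.07) followed. Sesn2 and Pmaip1 are also known as stress genes outside p53, and Sesn2 is a member of the ATF4 list. Members that did not pass included the translesion polymerases Polh (-0.51) and Polk (0.49), the damage sensors Ddb2 (-0.01) and Xpc (0.39), and Fas (-0.03).

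Of NRF2 targets, 9 of 25 passed as higher and none as lower (1 with an unadjusted p below 0.05), with a median difference of 0.49 and 7 to 14 past under the alternatives. Hmox1 led. Slc7a11, the cystine importer that feeds glutathione synthesis and which ATF4 also drives, was at -0.84, -0.78 and -0.57 against -2.37, -2.41 and -2.44. Sqstm1 (p62), an autophagy receptor, differed by 1.12, Srxn1, which restores oxidized peroxiredoxins, by 0.97, and the ferritin chains Ftl1 and Fth1 by 0.75 and 0.64. Members that did not pass included the textbook NRF2 gene Nqo1 (0.51), Txnrd1 (0.50) and Gclc (0.38), whereas Gclm, the other subunit of the same glutathione enzyme, did (0.65). Of 21 glutathione transferases, 6 were higher and 1, Mgst3 (-0.84), was lower. Gsta4, which conjugates the lipid peroxidation product 4-hydroxynonenal, stood at -0.48, -0.45 and -0.55 against -2.19, -2.10 and -2.14, a 3.14-fold rise. Gsta3, Gsta1, Gsta2 and Mgst2 differed by 1.49, 1.05, 1.06 and 1.05. The calls of Gsta1, Gsta2 and Gsta3 were lost under normexp correction (adjusted p of 0.22, 0.16 and 0.35), and 3 to 9 members were higher under the alternatives. The alpha-class genes are close copies, and a probe for 1 of them may read another. The metallothioneins Mt1 and Mt2, which bind zinc, differed by 1.30 and 1.15. In the iron and heme list 6 of 19 were higher and 2 lower, or 6 and 1 of the 18 well above background on all 6 arrays. The lower ones were ceruloplasmin, Cp (-0.86), and the ferrireductase Steap4, which was not well above background in co-exposed cells, was at least 1.79-fold lower and lost its call under normexp correction (adjusted p of 0.064). The call of Gclm was lost under normexp correction (0.58) and that of Fth1 under quantile normalization (0.49).

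Of 23 glucose-use and hypoxia genes 10 were higher and 1 lower, with a median of 0.42. Vegfa, the endothelial growth factor, was at 2.83, 2.80 and 2.89 against 1.81, 1.90 and 1.85. Hexokinase Hk2 differed by 0.97 and the lactate exporter Slc16a3 by 0.68. Adm (adrenomedullin), a hypoxia-induced vasodilator, was the exception at 0.42, 0.53 and 0.52 against 2.21, 2.22 and 2.23, a 3.31-fold fall. In the list of the unfolded protein response, which holds chaperones, oxidases and degradation factors of the endoplasmic reticulum and the transcription factor Xbp1, 4 of 21 were higher and none lower (2 with an unadjusted p below 0.05 in limma). Those were Herpud1 (1.07), Sdf2l1 (0.79), Xbp1 (0.63) and Ero1a (0.60), while Hspa5 (BiP; 0.38) and Hsp90b1 (0.33) did not pass. In the autophagy and lysosome list 5 of 28 were higher (4 of the 27 well above background on all 6 arrays), among them Atg7 (0.76) and the cathepsins Ctsk (0.71) and Ctsl (0.64). Under normexp correction the calls of Atg7 and Ctsk were lost (adjusted p of 0.16 and 0.094) and Xbp1 missed the fold limit (0.56), as did Ctsl under quantile normalization (0.58). Ero1a missed it under quantile normalization (0.57) and without co-exposed replicate 2 (0.57) or KBrO3-only replicate 1 (0.58).

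**Figure D3:**
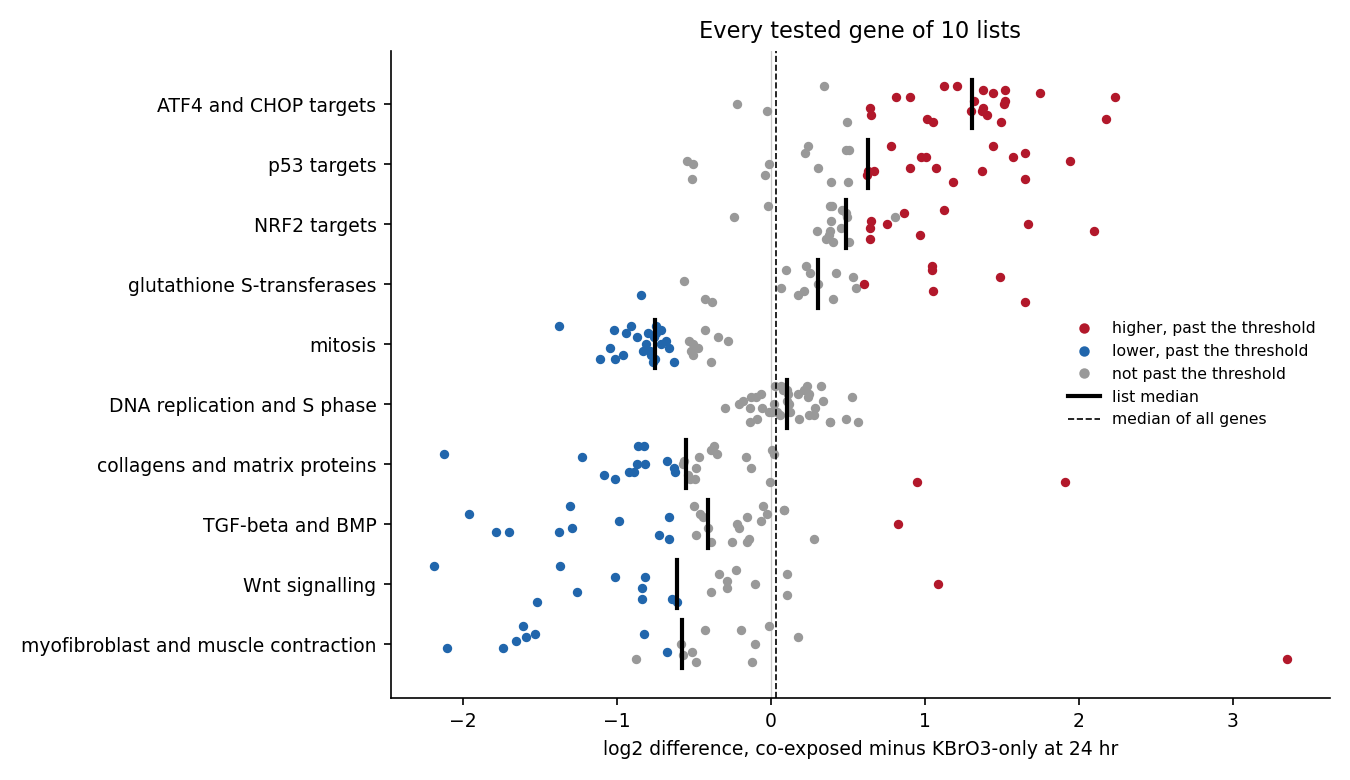
Difference of every tested gene in 10 lists (log2, co-exposed minus KBrO3-only at 24 hr, x axis); red and blue points passed the looser threshold as higher and lower, gray points did not, black bars are list medians and the dashed line is the median of all genes, 0.03. The medians run from 1.31 for ATF4 and CHOP targets to -0.75 for mitosis.

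Mitotic genes were lower in co-exposed cells, whereas genes of DNA replication did not pass in either direction. Of 33 genes of the spindle, kinetochore and mitotic kinases, 24 were lower and none higher at the looser threshold, none had an unadjusted p below 0.05 upward, and the median was -0.75. Anln (anillin), which organizes the cleavage furrow, stood at -0.60, -0.63 and -0.68 against 0.48, 0.87 and 0.87, a 2.60-fold fall. The spindle motor Kif11 was at -0.95, -1.03 and -0.84 against 0.16, 0.19 and 0.14. Prc1, which bundles the central spindle, was at 3.75, 3.72 and 3.71 against 4.71, 4.76 and 4.76. Cdc20, an activator of the anaphase-promoting complex, differed by -0.96, the proliferation marker Mki67 by -0.91, cyclin Ccnb1 by -0.81, and the kinases Plk1 and Aurka by -0.80 and -0.78. Cdk1 (-0.53), Aurkb (-0.34) and Birc5 (-0.39) did not pass. Under scaling to the array median 16 of the 33 passed, and 16 to 26 did over all alternatives. Of 39 replication and S phase genes none passed in limma, 18 had an unadjusted p below 0.05 upward and 3 downward, and the median was 0.11; up to 3 passed under an alternative. Among cyclins and inhibitors, Ccnd2 (0.92) and Cdkn1c (0.68) were higher and Cdkn2d (-0.86) lower. Of 14 histone genes 5 were lower, led by the linker histone H1f2 at 0.68, 0.60 and 0.92 against 2.69, 2.69 and 2.49. Histone genes are near copies of each other, so that signal may be shared among them.

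The promoter windows of the mitosis list were searched for TTTGAA, the core of the cell cycle homology region through which mitotic genes are repressed outside their phase. It was found in 20 of 28 windows (71.4%), against 20.2% of all genes. Stretches upstream of the start are printed for 3 genes that were lower, with the match in capitals and in the gene's own orientation. Kif11 is at chr19:37376323-37376381 (plus strand), Prc1 at chr7:80294406-80294475 (plus strand) and Cdc20 at chr4:118437344-118437401 (minus strand), all GRCm38.p6.
Kif11: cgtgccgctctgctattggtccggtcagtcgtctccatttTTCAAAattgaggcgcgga
Prc1: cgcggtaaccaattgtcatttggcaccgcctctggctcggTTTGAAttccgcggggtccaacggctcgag
Cdc20: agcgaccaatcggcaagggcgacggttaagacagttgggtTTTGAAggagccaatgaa
These differed by -1.11, -1.01 and -0.96. In the ATF4 list the same letters were found in 3 of 21 windows (14.3%), and TGATGNAA in 1 of 28 mitosis windows (3.57%). The other motif searched, TGACNNNGC, the core of the antioxidant response element of NRF2, was in 7 of 21 windows of the NRF2 list (33.3%) and in 8 of 21 of the ATF4 list (38.1%), against 14% of all genes.

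Of 30 collagens and matrix proteins 13 were lower, 2 higher and 15 not past the threshold, with a median of -0.55, and 10 to 19 were lower under the alternatives. Thbs1 (thrombospondin-1), which activates latent TGF-beta, stood at -0.29, -0.35 and -0.47 in co-exposed and 1.54, 1.86 and 1.85 in KBrO3-only cells, a 4.36-fold fall. Lox, which crosslinks collagen, was at 0.94, 0.86 and 1.30 against 2.09, 2.22 and 2.04. Col12a1 (-1.23), Thbs2 (-1.01), Col6a2 (-0.92), fibrillin Fbn1 (-0.87) and tenascin Tnc (-0.82) were also lower. The major fibrillar chains Col1a1 (-0.48), Col1a2 (-0.35) and Col3a1 (-0.52) did not pass, nor did Fn1 (0.01). The higher ones were the lubricant Prg4, at 1.43, 1.33 and 1.52 against -0.43, -0.45 and -0.57, and Col18a1 (0.95). Of 18 matrix proteases and inhibitors 6 were lower, among them Mmp10 (-1.29) and Timp3 (-1.15), while Mmp15 (1.82) and Mmp23 (0.70) were higher. The calls of Mmp10, Mmp15 and Mmp23 were lost under normexp correction (adjusted p of 0.081, 0.21 and 0.22).

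Of 29 TGF-beta and BMP genes 10 were lower and 1 higher, with a median of -0.41. Among ligands Bmp4 stood at 0.06, 0.00 and -0.11 against 1.75, 1.77 and 1.79, Tgfb2 at -2.30, -2.24 and -1.94 against -0.34, -0.55 and -0.50, and Bmp2 and Tgfb3 differed by -1.30 and -0.66. No receptor of the list passed, and Tgfbr2 differed by -0.46. Among target genes Ccn2 (CTGF) was at 2.41, 2.49 and 2.42 against 4.39, 4.38 and 4.42, a 3.88-fold fall, and Id4 (-1.38), Id2 (-0.98) and the inhibitor Smad6 (-0.73) were lower. The BMP antagonist Grem1 (0.83) was higher, whereas the activin antagonist Fst was lower (-0.66). Under median scaling the calls of Fst, Tgfb3 and Smad6 were lost (-0.49, -0.49 and -0.56). In Wnt signalling 10 of 19 were lower and 1 higher, with a median of -0.61. Both ligands and inhibitors were among the lower genes: Dkk2, an inhibitor of the co-receptor, at -0.05, 0.02 and 0.06 against 2.22, 2.21 and 2.18, the ligand Wnt10b (-1.52), the decoys Sfrp1 (-1.37) and Sfrp2 (-1.26), and the receptor Fzd2 (-1.01). The ligand Wnt9a was higher (1.08).

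Contractile genes were lower in 8 of 20 and higher in 1, with a median of -0.58, and in 8 and 0 of the 18 well above background on all 6 arrays. Calponin Cnn1 stood at 0.83, 0.85 and 0.61 against 2.48, 2.48 and 2.56, and the myosin light chain Myl9 at 2.33, 2.31 and 2.17 against 3.85, 3.93 and 3.99. Troponin Tnni2 (-2.10), Actc1 (-1.59) and Tagln (-0.67) were lower as well, whereas Acta2, smooth muscle actin, did not pass (-0.51). The higher member was Mlip, a lamin-interacting muscle protein, at -2.76, -2.91 and -2.81 against -5.70, -6.40 and -6.45; its probe was well above background on 1 of the 3 KBrO3-only arrays. Among vasoactive genes 6 of 13 were lower and 1 higher, but 2 and 1 of the 8 well above background on all 6 arrays. The angiotensin receptor Agtr2 differed by -3.71, at -4.74, -4.85 and -4.42 against -0.94, -0.85 and -1.09, and was well above background on 2 of the 3 co-exposed arrays. The natriuretic peptide clearance receptor Npr3 (-1.71) and Nppb (-1.22) were lower, and the endothelin receptor Ednra was higher (0.84) while its ligand Edn1 was lower. In axon guidance 9 of 23 were lower, led by Sema3d (-1.72) and Sema3e (-1.35), and 1, Robo3, was higher (1.64). Among the 22 well above background on all 6 arrays 8 were lower and 1 higher. Under normexp correction the calls of Robo3 and Nppb were lost (adjusted p of 0.056 and 0.31), and under median scaling that of Tagln (-0.50). Insulin-like growth factor Igf1 stood at -4.25, -4.34 and -4.31 against -2.57, -2.76 and -2.72, and the binding proteins Igfbp6 (-1.24) and Igfbp3 (-1.01) were lower.

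Of 19 chemokines and cytokines 2 were higher, Ccl4 (1.94) and Cxcl10 (1.23), and 5 lower, among them Cxcl14 (-1.47) and Cxcl5 (-1.23), or 2 and 4 of the 18 well above background on all 6 arrays. Of 20 acute phase and complement genes 4 were higher and 6 lower (4 and 5 of 17 on that condition), Wfdc17 and the lipocalin Lcn2 (0.96) among the former, and haptoglobin Hp among the latter, at 0.80, 0.85 and 0.52 against 2.33, 2.36 and 2.44. In the interferon list 3 of 28 were higher and none lower, with none at an unadjusted p below 0.05 downward in limma, and 2 to 7 were higher under the alternatives. Cholesterol synthesis and uptake had 4 of 24 lower and none higher, with 3 at an unadjusted p below 0.05 upward. Among the lower was Sqle, an oxygenase of sterol synthesis (-0.71), whose call was lost under median scaling (-0.54). Of 10 receptors reported to bind BPA and estrogen-linked genes that were tested, Esrra (0.67) was higher and S100g lower. Among the 9 well above background on all 6 arrays, which leave out S100g, 1 was higher and none lower. Esr1 (-0.01), Esrrg (-0.15) and Gper1 (-0.28) did not pass. A further 9 genes of that list were not tested. In xenobiotic metabolism 4 of 23 were higher, among them Cyp7b1 (0.99), Ephx1 (0.87) and the exporter Abcc4 (0.73), and 3 lower (4 and 2 of 21 on that condition).

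DNA repair genes are the subject of the series. The shares of the repair lists past the looser threshold were near or below the 7.25% and 7.37% of all genes and are no result about these lists. Of 23 base excision and strand break repair genes only Ogg1, the glycosylase that excises 8-oxoguanine, passed, at 2.01, 2.14 and 1.86 in co-exposed and 1.10, 1.08 and 1.21 in KBrO3-only cells, a difference of 0.88 ± 0.07 (SE; adjusted p = 6.5e-07). None was lower, and 15 had an unadjusted p below 0.05 upward and 4 downward, beside 4462 and 3358 of the 12751 genes over all. Polb (-0.40), Parp1 (-0.15), Xrcc1 (0.16) and Lig3 (0.18) did not pass. Of 22 nucleotide excision repair genes Ercc5, the 3' endonuclease XPG, passed (0.73) and none was lower, with 11 at an unadjusted p below 0.05 upward and 4 downward. Of 29 double-strand break repair genes Rad51d was higher (0.99) and Polq, of microhomology-mediated joining, lower (-0.69). The counts were the same among the 28 well above background on all 6 arrays. The call of Polq was lost under median scaling (-0.52) and normexp correction (-0.47). Of the repair genes that the study lists at 24 hr, 1 entry with an ambiguous name was left out. For the other 25, which the study chose on these samples and which are no independent evidence of direction, 2 were higher (Ogg1 and Ercc5) and none lower, with a median of 0.17 and an unadjusted p below 0.05 in 13 upward and 6 downward. Among cell death genes outside the p53 list, Casp4 (0.71) was higher and Bmf (-0.93) and Bok (-0.74) lower. The call of Bok was lost under median scaling (-0.57) and that of Bmf under normexp correction (-0.51).

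Of 20 immediate early genes 2 were higher, Dusp6 (0.80), a phosphatase of ERK, and Ier3 (0.65), and 3 lower, Dusp1 (-1.08), Egr2 (-0.92) and Fosl2 (-0.60). Fosl2 missed the fold limit under median scaling (-0.43) and normexp correction (-0.56), and without co-exposed replicate 1 (-0.54) or 2 (-0.57) or KBrO3-only replicate 2 (-0.58). In fatty acid oxidation 3 of 16 were lower, among them the carnitine transferase Cpt1a (-1.39) and the pyruvate dehydrogenase kinase Pdk4 (-0.75), and none higher, with 2 at an unadjusted p below 0.05 upward in limma. On the condition of signal well above background on all 6 arrays 2 of 15 were lower. The call of Pdk4 was lost under median scaling (-0.58). Of 13 prostaglandin genes 2 were higher, the synthase Ptges (0.70) and the phospholipase Pla2g4a (0.67), and 4 lower, among them Hpgd and the receptor Ptger1 (-0.83). Among the 10 members well above background on all 6 arrays 2 were higher and 1 lower. Of the lower ones Hpgd, Ptgis and Alox12 lost their calls under normexp correction (adjusted p of 0.93 for Ptgis and 0.98 for Alox12). Alox12 also lost it under quantile normalization (-0.52), as did Ptgis (-0.45), which lost it as well under median scaling (-0.55), with slide as a fixed block (-0.51) and without KBrO3-only replicate 1 (-0.56). Pla2g4a missed the fold limit without co-exposed replicate 3 (0.56) and with slide as a fixed block (0.53). Of 32 chromatin modifiers only the deacetylase Hdac11 passed (1.19), and 10 had an unadjusted p below 0.05 upward and 10 downward. The call of Hdac11 was lost under normexp correction (0.79). Of 15 NF-kB genes only the feedback inhibitor Tnfaip3 passed (-0.81), and 5 had an unadjusted p below 0.05 upward. In the circadian clock list 2 of 17 were higher and 1 lower, or 2 and none of the 16 well above background on all 6 arrays. Ciart (1.25) and Bhlhe40 (0.59) were higher and Hlf, not well above background on all 6 arrays, was lower. Of the fatty acid synthesis genes Lpin1 (0.91) was higher and Scd1 (-0.68) lower. Under normexp correction the calls of Ciart, Bhlhe40 and Hlf were lost (1.03, 0.55 and -0.43), and under median scaling that of Scd1 (-0.51). Bhlhe40 also missed the fold limit without KBrO3-only replicate 1 (0.53) or without co-exposed replicate 1 (0.56) or 2 (0.57). In the list of pH regulation 3 of 15 were higher and 1 lower, or 3 and none of the 14 well above background on all 6 arrays. Besides Car6, the lactate carriers Slc16a3 and Slc16a1 (0.66) were higher. Slc26a7, not well above background in co-exposed cells, was lower. Slc16a1 missed the fold limit under quantile normalization (0.58) and without co-exposed replicate 2 (0.57), and the call of Slc26a7 was lost under normexp correction (adjusted p of 0.69).

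No gene passed in either direction in limma for oxidative phosphorylation (30 tested, median -0.01), proteasome (29, 0.10), ribosome biogenesis (30, 0.16) and cytosolic heat shock (14, 0.07). At an unadjusted p below 0.05 those lists had 5, 14, 20 and 5 genes higher and 7, 2, 1 and 3 lower. Over all 12751 genes 4462 were higher and 3358 lower at that limit. Under other settings at most 1 gene of any of them passed in either direction. The median of oxidative phosphorylation was 0.16 under scaling to the array median and -0.17 under quantile normalization.

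Against the untreated controls of the same set, which are labeled 4 hr and are shared by the values that follow, the lists had distinct levels. Per array, the median of a list relative to the mean of the controls was 0.36 to 0.44 for ATF4 and CHOP targets in KBrO3-only and 1.51 to 1.61 in co-exposed cells at 24 hr. For p53 targets it was 0.22 to 0.29 and 0.77 to 0.88. NRF2 targets stood near the control level in KBrO3-only cells (-0.02 to 0.06) and above it in co-exposed cells (0.52 to 0.70). Mitotic genes were above control in KBrO3-only cells (0.58 to 0.67) and near it in co-exposed cells (-0.18 to 0.04). Collagens and matrix proteins were below control in both, at -1.09 to -1.03 and -1.75 to -1.57, and so were TGF-beta and BMP genes, at -0.34 to -0.26 and -1.13 to -1.01. All genes together stood at -0.05 to -0.01 and -0.01 to 0.01.

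**Figure D4:**
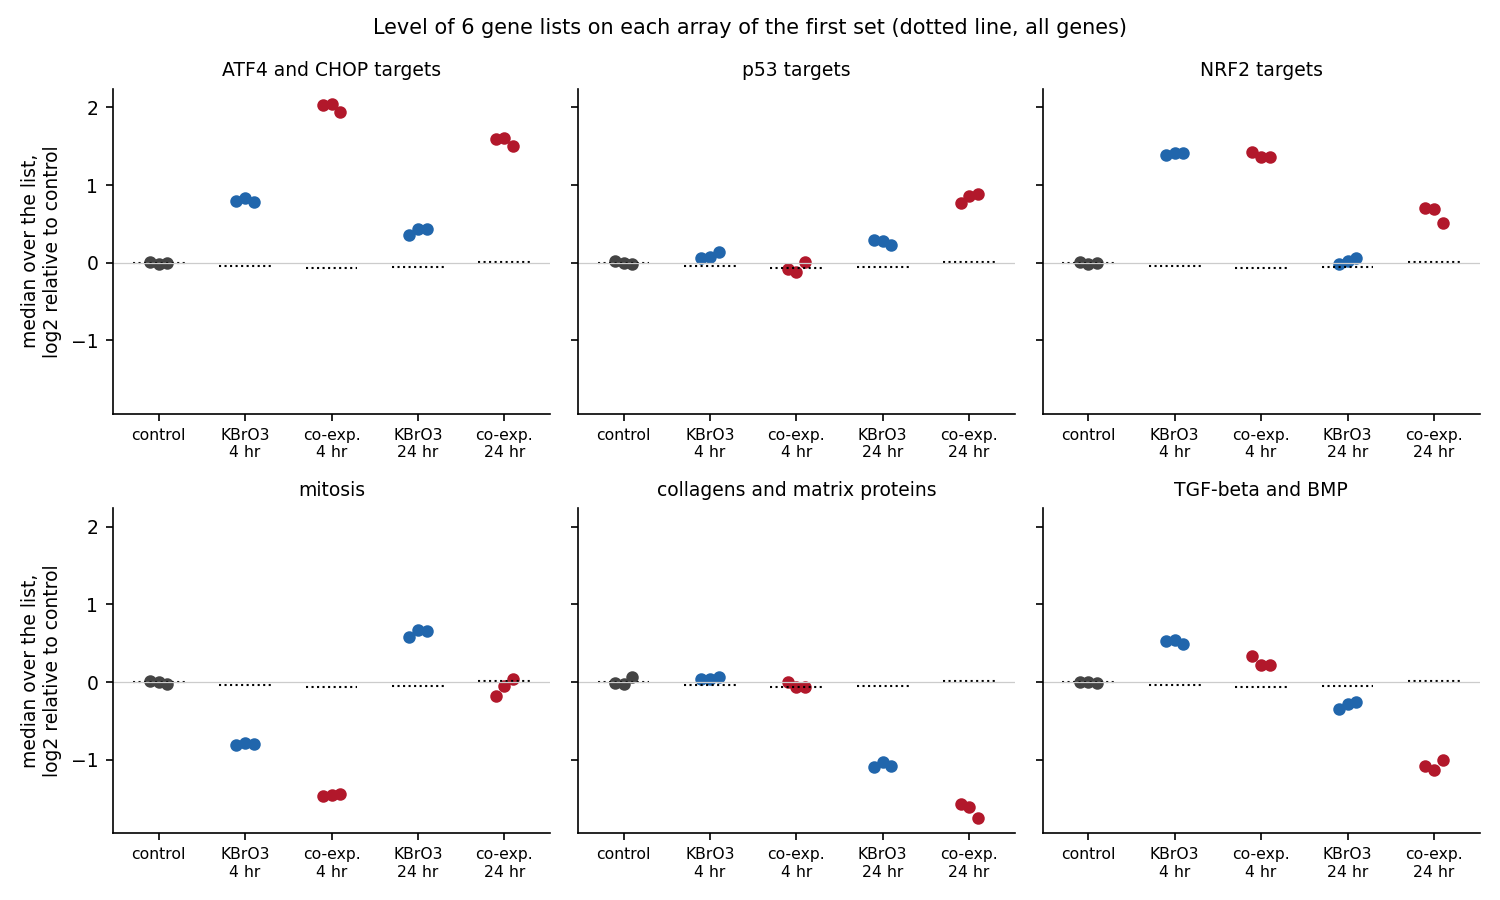
Median level of 6 lists on each of the 15 arrays of the first set, in log2 relative to the mean of the control arrays (y axis), by group (x axis); each point is 1 array, gray for control, blue for KBrO3-only and red for co-exposed cells, and dotted lines give the median over all genes. At 24 hr the co-exposed arrays lie above the KBrO3-only arrays for ATF4, p53 and NRF2 targets and below them for mitosis, matrix and TGF-beta genes.

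The next comparison asked whether the difference made by BPA at 24 hr was already there at 4 hr, when co-exposed and KBrO3-only cells can be compared with no array in common. Subtracting the 4 hr difference from the 24 hr difference in the same limma fit, 517 genes (4.05%) had a higher and 286 (2.24%) a lower value at the Bonferroni threshold, and 1839 (14.4%) and 1485 (11.6%) at the looser one. These counts were 957 and 466 without co-exposed replicate 3 and 317 and 186 without KBrO3-only replicate 2, and 309 to 333 and 175 to 191 without any 1 of the 6 arrays at 4 hr. They were 484 and 55 under median scaling, 31 and 13 under normexp correction and 263 and 127 with slide as a random block. The leading genes were picked for their 24 hr difference, which enters the change, so that their values at 4 hr are given as a description. Wfdc17 differed by 0.16 ± 0.04 at 4 hr against 3.03 at 24 hr, Hmox1 by 0.12 ± 0.06 against 2.10, and Slco4a1 by 0.32 ± 0.07 against -2.73. Trib3, in contrast, differed by 1.78 ± 0.05 at 4 hr and 2.24 at 24 hr, a change of 0.45. Chac1 differed by 2.35 at 4 hr and 1.75 at 24 hr.

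The shares of all genes at the looser threshold were 14.4% with a higher and 11.6% with a lower value, as above. At an unadjusted p below 0.05 in limma 4749 of the 12751 genes had a higher and 3631 a lower value. ATF4 and CHOP targets had a median difference of 0.86 at 4 hr against 1.31 at 24 hr, and for 6 of 26 the change was higher and for 3 lower at the looser threshold. For mitosis the medians were -0.59 and -0.75, and for 1 of 33 the change was lower and for none higher, with 16 lower and 3 higher at an unadjusted p below 0.05. For p53 targets they were 0.00 and 0.63, with 14 of 27 changing upward and 1 downward, Cdkn1a among them (-0.17 at 4 hr; change 1.82) and Mdm2 (-0.33; change 1.70). For NRF2 targets they were -0.23 and 0.49, with 15 of 25 changing upward and none downward (none with an unadjusted p below 0.05 downward). Glutathione transferases went from -0.29 to 0.31, with 11 of 21 changing upward and 1 downward, Gsta4 by 2.16. Cholesterol genes went from 0.41 to -0.30, and 15 of 24 changed downward and 1 upward. Among matrix and TGF-beta genes 11 of 30 and 11 of 29 changed downward, including Thbs1 (-0.23 at 4 hr), Bmp4 (-0.09) and Bmp2, which was 1.01 higher at 4 hr and differed by -1.30 at 24 hr. At 4 hr the KBrO3-only arrays lay on slide 2 and the co-exposed arrays on slide 3, so that slide and group cannot be told apart there.

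The last comparison set the effect of BPA added to KBrO3 beside the effect of BPA alone at 24 hr, measured in the second set against its own controls. The sets were extracted apart with different software versions, and each difference is within its set. Of 12718 genes tested, 1 (0.00786%) was higher and 10 (0.0786%) were lower after KBrO3 than with BPA alone at the Bonferroni threshold, and 107 (0.841%) and 131 (1.03%) at the looser one. Without any 1 of the 6 arrays of the second set 0 or 1 was higher and 3 to 5 were lower at the Bonferroni threshold. With slide as a fixed block no gene passed it in either direction. A replicate block left 0 higher and 3 lower, and normexp correction 0 and 2. Standard errors of BPA alone were wider, 0.42 for Wfdc17 and 0.22 for Hmox1 against 0.04 and 0.06. A p that misses the threshold does not show that the effects were alike. For ATF4 and CHOP targets the median was 1.32 with BPA alone and 1.31 after KBrO3; Trib3 differed by 1.95 ± 0.30 and 2.24, and Cth by 2.81 ± 0.32 and 2.18. For mitosis the medians were -0.56 and -0.75, and for p53 targets 0.44 and 0.63. Wfdc17 differed by 5.13 with BPA alone and 3.03 after KBrO3, and Car6 by 4.01 and 2.88. Among the leading falls, Aspn differed by -2.62 and -2.75 and Ptn by -3.11 and -2.25, whereas Slco4a1 differed by -0.69 ± 0.26 with BPA alone and Ism1 by -0.35 ± 0.22, against -2.73 and -2.26. Neither of these differences between effects passed in limma, at a Bonferroni-adjusted p of 0.25 and 0.11.

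**Figure D5:**
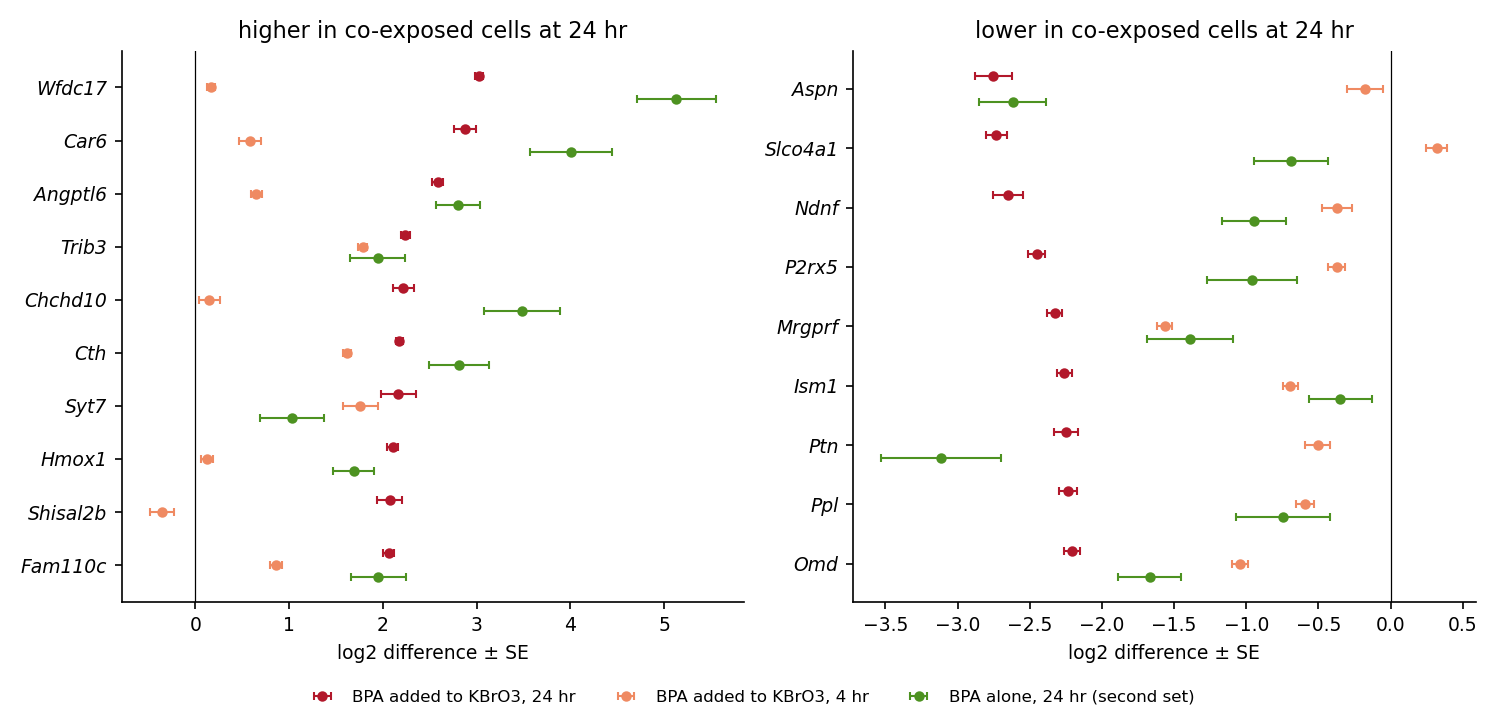
Log2 difference ± SE (x axis) of the 19 leading genes for BPA added to KBrO3 at 24 hr (red), at 4 hr (orange) and for BPA alone at 24 hr in the second set (green); Shisal2b was not tested in the second set. The 4 hr differences of the 19 genes run from -1.56 (Mrgprf) to 1.78 (Trib3), and only Syt7 (1.76), Cth (1.62) and Omd (-1.04) lie beyond 1 in size besides these.

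Of the 11 genes for which the effects of BPA differed at the Bonferroni threshold, 8 had a positive difference with BPA alone and a negative one after KBrO3. None of these 11 calls remained with slide as a fixed block. Saa3, an acute phase apolipoprotein, was 4.67 ± 0.34 higher with BPA alone and differed by -0.43 ± 0.04 after KBrO3. Hp differed by 1.92 and -1.66, the collagenase Mmp13 by 2.52 and -0.52, and Adm by 0.54 and -1.73. For Edn1 both were negative, but after KBrO3 its signal was not well above background in co-exposed cells and only a lowest fold of 4.93 can be given. The only gene with a higher value after KBrO3 was the integrin Itga8, at -1.57 with BPA alone and 0.35 after KBrO3, where its groups overlapped. The untreated controls of the sets also differed for some of these genes. Levels, normalized within each array, were 4.52 in the first and -4.01 in the second set for Saa3, 7.79 and 2.32 for Hp, and 2.44 and -2.29 for Mmp13. The part of the difference between sets in these results was not tested. In the acute phase list 9 of 20 genes were lower after KBrO3 than with BPA alone at the looser threshold and none higher (none with an unadjusted p below 0.05 upward), and in the chemokine list 10 of 19 were lower and none higher (2 with an unadjusted p below 0.05). Over all 12718 genes 1.03% were lower and 0.841% higher, and 980 and 981 had an unadjusted p below 0.05. Of the members of these lists 17 and 18 were well above background on all 6 arrays of the first set's comparison.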

How the data were processed

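Per the labels and the file headers, 24 samples were each hybridized to 1 Agilent 1-color array, with no pooling. The deposited values are intensities that the authors' Feature Extraction runs (version 9.5.3.1 in the first set and 12.0.0.7 in the second per the file headers, 12.0 in the submitters' processing notes) had corrected for background within each array. All 1080432 values of the deposited series table equalled the scanner output. The array headers name mouse builds older than the GRCm38.p6 of the RefSeq sequences, so that no coordinate of the arrays was used.

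Here log2 of the processed intensity minus the 75th percentile of each array over spots other than controls was taken, outlier spots were left out, and replicate spots were averaged. A filter kept 24222 probes that exceeded background clearly on all 3 arrays of either group. Of 41174 probes 33564 matched a gene, 28598 by accession and 4966 by symbol. The brightest probe over the 15 arrays stands for a gene, and of 429 altered genes with another tested probe, 28 had one of opposite sign. One limma fit (3.58.1, in R 4.3.3) covered the 5 groups of the first set, with p-values adjusted over all probes tested in a comparison. The contrast with BPA alone joined the fits of both sets with Satterthwaite degrees of freedom. The arrays' number, 3 per group, limits the precision, and p-values measure the spread between these cultures of 1 line.

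Genes were named by rule. These were the 10 largest rises and falls among altered genes with a plain symbol, well above background on all 6 arrays and with no overlap, up to 5 per direction by their lowest possible fold, up to 4 or more examples per list, and Xrcc6. Some genes that these rules name are not reported here. Mlip, Agtr2 and further list members were chosen after their values were seen, and were put through the same alternatives. The comparison, the lists and the rules were chosen with earlier results of these data known. Whether equal replicate numbers pair the samples is not known, and no pairing was used in the main test. Correlations of deviations between arrays of equal number were -0.14, -0.02 and -0.32 over 24221 probes. With 3 arrays per group and slides shared unevenly between the groups, these values cannot settle it. Alternatives were median and quantile scaling, normexp background correction (offset 50), other filters on dim probes, outlier spots kept, any probe of a gene, the arrays of the compared groups alone, slide or replicate as a block, weighting by the scanner's error without moderation, the Benjamini-Hochberg threshold and leaving out each array. The test was checked on simulated data with independent noise and no slide effect, where none of 23995 unchanged probes passed the Bonferroni threshold. That check does not cover the correlation of arrays of 1 slide, estimated at 0.643 in these data.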

Additional observations from a re-analysis of the deposited data

Results flagged for a closer look

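For 20 of the 27 leading genes the BPA-added difference at 24 hr differed from that at 4 hr in the fit's test of the change (Bonferroni threshold), as did 4.05% of all genes upward and 2.24% downward. These genes were picked for large differences at 24 hr, which enter the change, so that their share past the threshold is a description and is not to be read against that of all genes. The change (24 hr minus 4 hr, log2) was 2.87 for Wfdc17, 2.30 for Car6, 1.93 for Angptl6, 2.07 for Chchd10, 1.98 for Hmox1, 2.42 for Shisal2b and 1.20 for Fam110c among genes higher at 24 hr. Among genes lower at 24 hr it was -2.58 for Aspn, -3.05 for Slco4a1, -2.28 for Ndnf, -2.08 for P2rx5, -0.76 for Mrgprf, -1.56 for Ism1, -1.74 for Ptn, -1.64 for Ppl and -1.16 for Omd. For Nat8f5, not well above background in KBrO3-only cells, it was 2.48. For genes not well above background in co-exposed cells it was -2.95 for Edn1, -2.88 for S100g and -2.53 for Cdhr1. The values of these 4 genes are fitted to signals not well above background and are no measure of size.

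For 11 genes the difference made by BPA after KBrO3 differed from that of BPA alone at 24 hr, of which Edn1 was the only 1 of the 25 leading genes tested. With slide as a fixed block no gene passed, and under normexp correction 2 did, both lower. The difference between the effects (log2) was 1.92 for Itga8, -1.99 for Edn1, -5.10 for Saa3, -3.04 for Mmp13, -2.80 for Mettl7b, -2.31 for Gstt4, -1.90 for Slc1a3, -2.36 for Cxcl2, -3.57 for Hp, -2.27 for Adm and -2.50 for Npas4. Each effect was measured within its own array set. The values of Edn1 and Cxcl2, which were not well above background in co-exposed cells, are no measure of size.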

How the results depend on the processing

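Counts are genes higher and then lower at the Bonferroni threshold, for BPA added at 24 hr (593 and 532), for its change from 4 hr (517 and 286) and against BPA alone (1 and 10). No altered gene of the 24 hr comparison changed direction under any setting except 1 of the 1125 without the filter on dim probes. The Benjamini-Hochberg threshold gave 925 and 940, 1839 and 1485, and 107 and 131. Median scaling gave 589 and 245, 484 and 55, and 0 and 8. Under normexp correction these were 78 and 79, 31 and 13, and 0 and 2. With the arrays of the compared groups alone they were 33 and 51, 336 and 178, and 0 and 3. Without the filter on dim probes the change from 4 hr gave 322 and 178 and the comparison with BPA alone 2 and 6. Against BPA alone, quantile normalization and the filter on all compared arrays each left 6 lower, and error weighting left 3. With slide as a fixed block that comparison gave 0 and 0, and the change from 4 hr could not be fitted. With slide as a random block the change from 4 hr gave 263 and 127. With a replicate block it gave 283 and 164, BPA added gave 439 and 410, and the comparison with BPA alone 0 and 3. Leaving out each array of the groups compared in turn, those of 4 hr and of the second set by a choice made after seeing the data, gave 429 to 710 and 406 to 552, 309 to 957 and 175 to 466, and 0 to 1 and 3 to 9. The cause of these changes was not tested. Low signal over background limits the genes given with a lowest possible fold.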

Other observations

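Some lists were written after values were seen and so are no independent evidence. Their counts stand beside 7.25% higher and 7.37% lower over all genes at the looser threshold. Of 20 cytosolic aminoacyl-tRNA synthetases, which charge tRNAs with amino acids, 9 were higher with BPA added to KBrO3 at 24 hr (Benjamini-Hochberg adjusted p below 0.05 in limma and beyond 1.5-fold) and none lower, with none at an unadjusted p below 0.05 downward. Nars, Sars, Tars and Aars differed by 1.04, 0.99, 0.85 and 0.83, whereas Kars (-0.11) and Qars (-0.04) did not pass.

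Of 14 small leucine-rich proteoglycans, which bind collagen fibrils and growth factors, 8 were lower and 1 higher, beside 7.37% and 7.25% of all genes. Of the 11 well above background on all 6 arrays 6 were lower and 1 higher. Besides Aspn and Omd, Prelp (-1.76), Ogn (-1.52) and Fmod (-0.99) were lower, Podn was higher (0.69; its call was lost under normexp correction, adjusted p of 0.079), and Dcn, the most studied of the family, did not pass (0.02). Among 15 claudins and junction plaque proteins 5 were lower, among them Pkp3 (-1.34), and 1, Evpl, higher (0.78; lost under normexp correction, adjusted p of 0.11), or 3 and 1 of the 13 well above background on all 6 arrays.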
